A study of Rattus norvegicus with 8 samples.

Results

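The matrix metalloproteinases (MMPs), the ADAM and ADAMTS proteases and their inhibitors, the TIMPs, were examined in a rat model of lung carcinogenesis. Members were all mRNA probes whose RefSeq accession belongs to a rat gene symbol that starts with Mmp, Timp, Adam, Adamts or Adamtsl and a number. This gave 50 genes of the 13888 that could be named on the array, namely 20 MMPs, 15 ADAMs, 8 ADAMTS, 3 ADAMTS-like genes and 4 TIMPs. Each was measured by 1 probe in 1 spot. Adam8, Adam10, Adam17, Adamts2 and Mmp25 are not analysed here.

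All animals were male F344 rats, and all samples were taken in week 95. NNK, or 4-(methylnitrosamino)-1-(3-pyridyl)-1-butanone, is a lung carcinogen of tobacco smoke. The lung groups were 3 lung tumors and 3 normal lung tissues called matched, all from NNK-treated rats, so both sides of that comparison carry the exposure and no untreated lung was included. The blood groups were 1 clot of whole blood from a control rat and 1 from an NNK-treated rat. RNA was hybridized in 1 colour to the Arraystar rat lncRNA array, and the signal of a spot is given here as log2 of the background-subtracted fluorescence, quantile-normalized within the 6 lung arrays or within the 2 blood arrays.

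MMPs are zinc-dependent endopeptidases that cut collagens, elastin and other matrix proteins. Most are made as inactive precursors, some are anchored in the membrane, and TIMPs block their active site. ADAMs are membrane proteins, several of which release growth factors, cytokines and adhesion molecules from the cell surface, while ADAMTS proteases are secreted and cut proteoglycans, procollagens or von Willebrand factor. In the lung these enzymes are known from alveolar elastin turnover, inflammation and tumor invasion.

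The arrays were alike in brightness within the lung, with a median signal of 25.0 to 35.6 before log transformation, while the control and NNK blood arrays had 11.8 and 32.0. Between 72.3% and 76.5% of mRNA probes had signal well above background in lung samples, and 60.3% and 61.6% in blood. The scanning software marked more spots as outliers in tumors (15.9% to 25.3% of the spots above background) than in normal lung (4.92% to 8.62%). No spot was saturated. The mean squared difference between 2 normal arrays was 0.467 to 0.787 times that expected from the spread between spots of 1 probe, and between tumors 2 and 3 it was 0.467 times, while tumor 1 differed from them by 3.03 and 3.36 times. These ratios used only probes other than mRNA probes, with 3 unmarked spots and signal above background on both arrays. A trend of the difference with signal was removed first. On these probes the normal arrays, and tumors 2 and 3, thus differed by less than the spot noise. The protease genes, with 1 spot each, were not in this check. The 3 normal arrays and tumor 1 were scanned together, and tumors 2 and 3 in another scan. Results with the near-identical arrays counted as 1 sample, which leaves 1 normal and 2 tumor samples, are given beside the counts. The spread in that fit comes from the tumors alone, so its p-values do not measure how normal lung varies. In a fit with the scan as a block, tumor 1 alone is set against the normal arrays. The p-values of such a fit do not measure how far tumor 1 differs from the other tumors. The lung tissues are called matched, but the labels do not say which arrays share an animal. The p-values thus measure only the spread between these arrays.

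Of the 50 genes, 29 had signal well above background in each of the 6 lung samples and 10 in none. In lung 36 passed the filter on dim spots, for which 3 of 6 arrays had to be above background, and 14 did not. A further 7 (Adam19, Adamts1, Adamts6, Adamts9, Mmp2, Mmp12 and Mmp16) kept fewer than 2 unmarked spots in a group. The remaining 29 were tested with limma, and the p-values were adjusted by Benjamini-Hochberg over the whole table. A gene was called where the fold change was 2 or more and the adjusted p 0.05 or less. Of these 29 genes, 8 were higher and 8 lower in lung tumor, and 13 were not called. Adam6 and Adamts19, among the higher ones, passed the filter through the tumor arrays alone. With signal above background required on all 6 lung arrays, 22 genes were tested, of which 6 were higher and 7 lower. Over all mRNA probes in the main test, the one with 29 genes, 11.5% were higher and 16.8% lower. In lung such shares were computed only for the main test and with marked spots kept. Lung counts under other filters or fits thus cannot be judged. The median log2 fold change was -0.26 for the 29 genes and -0.001 for all mRNA probes. With the marked spots kept, 36 genes were tested, of which 11 were higher and 10 lower, beside 11.7% and 15.3% of all mRNA probes. With the near-identical arrays counted once, 5 were higher and 5 lower, and with the scan as a block, which sets tumor 1 against the normal arrays, 9 were higher and 7 lower.

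**Figure D1:**
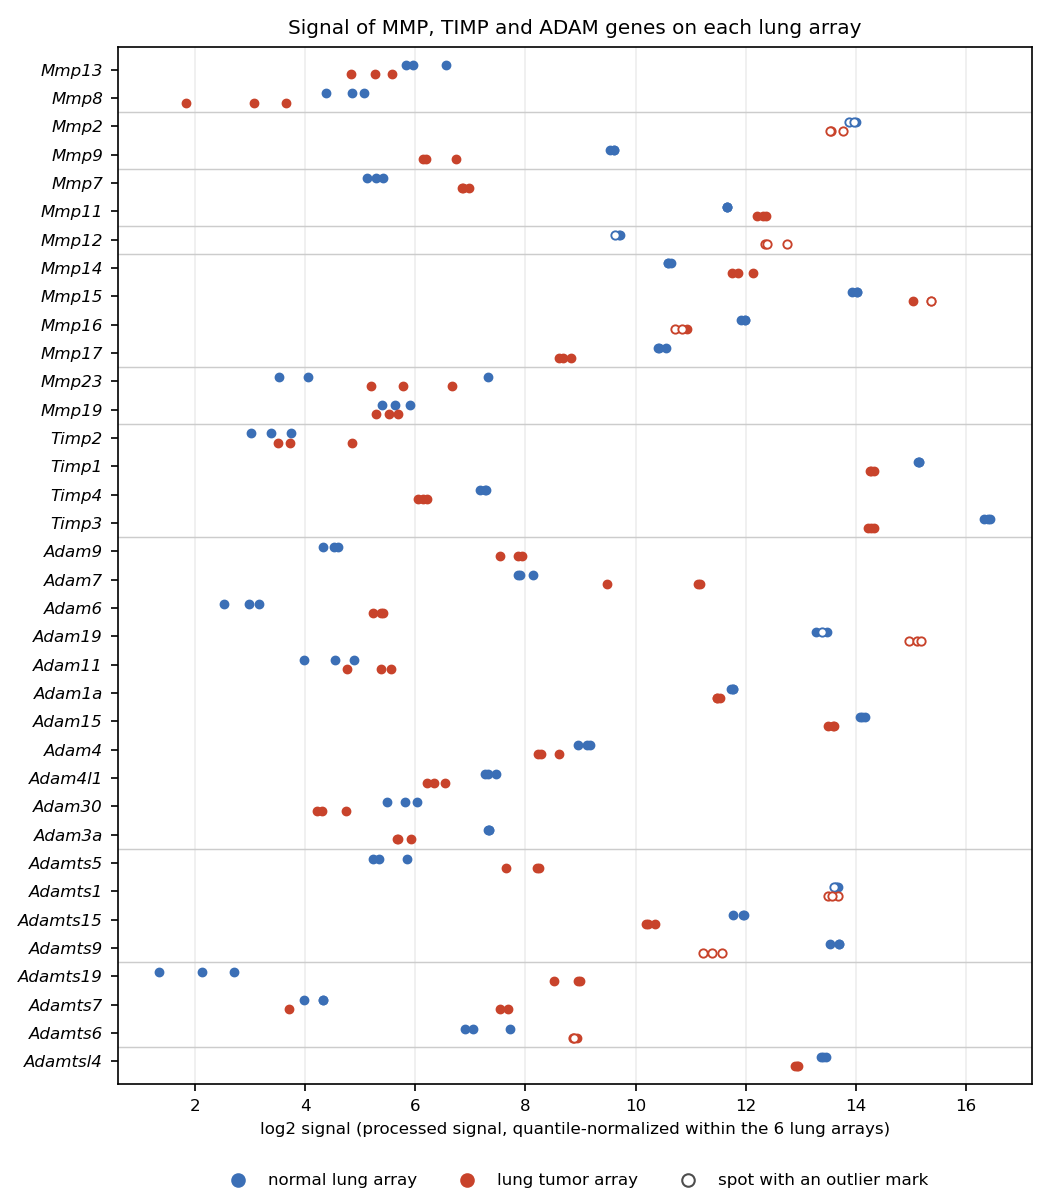
Signal of the 36 genes above the filter on each of the 6 lung arrays. The horizontal axis is the log2 signal, blue points are the 3 normal lung arrays, red points the 3 lung tumor arrays, and open points are spots with an outlier mark. Mmp9 and Timp3 lie lower on all 3 tumor arrays and Adam9 and Adamts5 higher, while 1 tumor array lies apart from the other 2 for Adamts7.

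**Figure D2:**
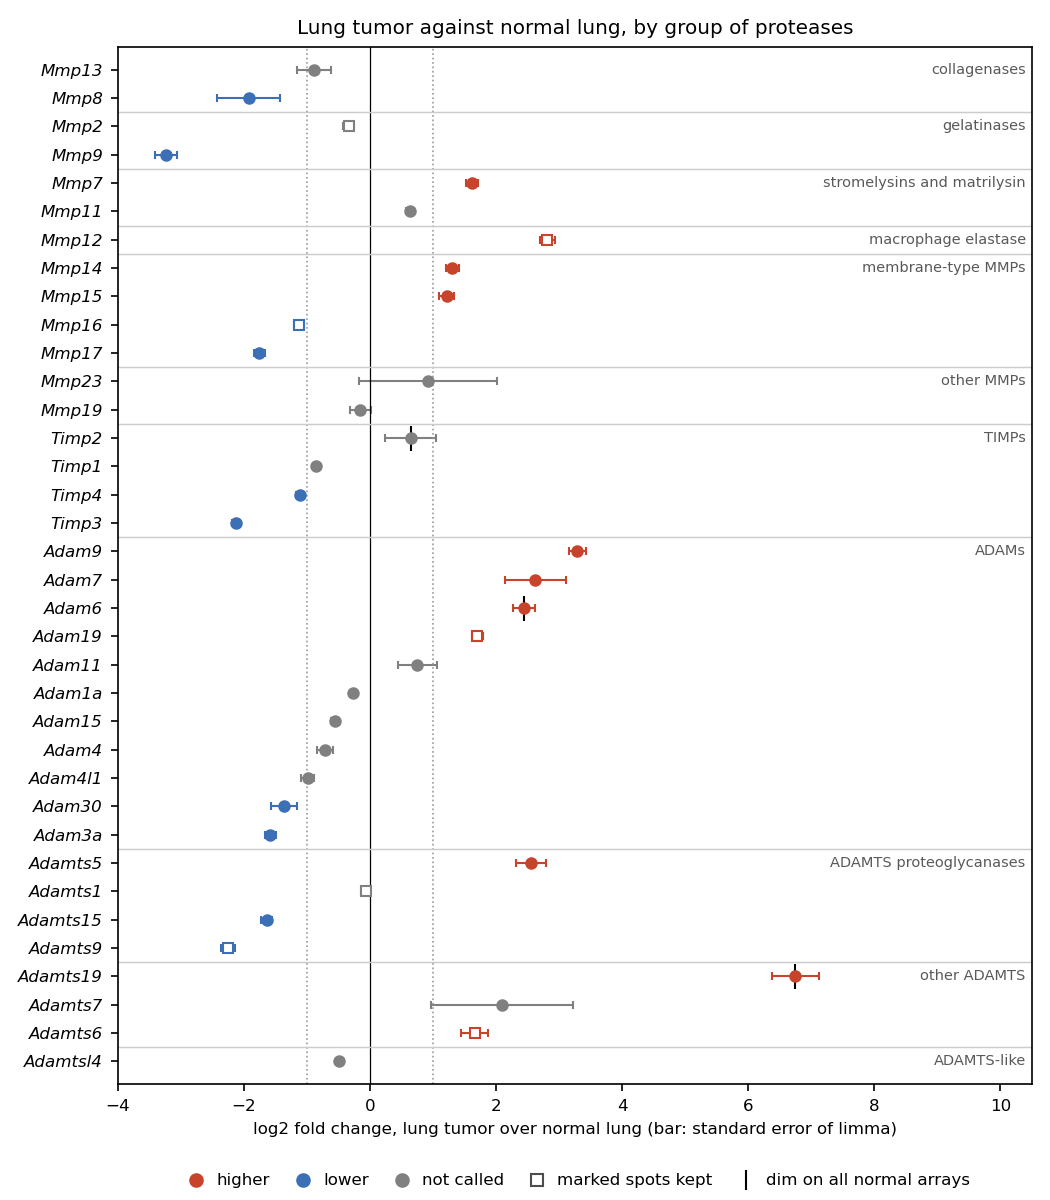
Log2 fold change of lung tumor over normal lung for the same 36 genes, by group of proteases. Bars are the standard error of limma, dotted lines mark a fold change of 2, squares are fits with the marked spots kept, and a vertical tick marks genes above background on no normal array. Values run from -3.23 for Mmp9 to 6.75 for Adamts19, whose normal arrays were all below background.

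In the rat reference annotation (GRCr8) 9 of the 20 MMP genes follow each other on chromosome 8, in the order Mmp13, Mmp12, Mmp3, Mmp1, Mmp10, Mmp8, Mmp27, Mmp20 and Mmp7, with 1 other protein-coding gene between Mmp12 and Mmp3. Of these, 5 were dim in lung (Mmp1, Mmp3, Mmp10, Mmp20 and Mmp27). Mmp12 and Mmp7 were higher in tumor, Mmp8 was lower, and Mmp13 was not called.

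RefSeq promoter windows, 250 bases before to 50 after the annotated start, were at hand for 33 of the 50 genes. Mmp2, Mmp9, Mmp14, Mmp16, Mmp17 and Mmp19, which lie on other chromosomes, had no window and were not searched. All 9 genes side by side on chromosome 8 had a window, so they weigh heavily among the 14 MMP windows. The letters TGAGTCA, the core bound by the transcription factor AP-1, occurred on either strand in 6 of these 9 windows (Mmp13, Mmp12, Mmp3, Mmp1, Mmp10 and Mmp7), with the first base 61 to 87 bases before the start. Each of the 6 also held the TATA box letters TATAAA, with the nearest match 32 to 47 bases before the start. Among the other 5 MMP windows, 4 TIMP windows and all ADAMTS windows none held the AP-1 letters, and of the ADAMs Adam19 did, 169 bases before its start. Over all 33469 windows of this length in the table, 4.63% held the AP-1 letters and 14.2% the TATA letters, beside 42.9% and 64.3% of the 14 MMP windows. The GC box letters GGGCGG were in none of the 9 windows and in 33.1% of all. The searches covered both strands, and the motifs do not overlap in the windows printed, except for a pair of TATA matches in Mmp10 that share letters. These are matches of letters, and binding was not measured. Printed are the windows of the chromosome 8 genes with AP-1 letters whose signals in lung differed most in kind: Mmp13 (chr8:12782579-12782878, plus strand), not called in lung, Mmp12 (chr8:12866402-12866701, plus strand) and Mmp7 (chr8:13132793-13133092, plus strand), both higher in tumor, and Mmp10 (chr8:12974457-12974756, plus strand), dim on all lung arrays. Capitals mark the AP-1 and TATA letters.
Mmp13: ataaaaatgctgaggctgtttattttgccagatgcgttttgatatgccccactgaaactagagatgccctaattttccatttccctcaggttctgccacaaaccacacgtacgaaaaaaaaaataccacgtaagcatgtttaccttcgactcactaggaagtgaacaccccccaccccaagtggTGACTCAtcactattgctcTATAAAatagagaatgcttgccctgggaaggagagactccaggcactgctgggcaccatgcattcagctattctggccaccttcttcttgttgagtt
Mmp12: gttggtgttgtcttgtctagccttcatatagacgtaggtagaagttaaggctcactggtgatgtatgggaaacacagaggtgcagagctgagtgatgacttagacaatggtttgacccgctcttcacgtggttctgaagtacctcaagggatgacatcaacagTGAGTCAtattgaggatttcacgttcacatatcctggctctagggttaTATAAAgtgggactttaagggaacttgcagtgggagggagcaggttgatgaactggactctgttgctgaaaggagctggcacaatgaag
Mmp10: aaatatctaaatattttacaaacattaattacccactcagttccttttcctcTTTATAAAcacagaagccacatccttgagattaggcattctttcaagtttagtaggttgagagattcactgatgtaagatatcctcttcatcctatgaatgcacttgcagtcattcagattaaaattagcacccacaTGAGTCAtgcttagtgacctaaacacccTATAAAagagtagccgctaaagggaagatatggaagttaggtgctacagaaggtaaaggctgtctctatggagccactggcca
Mmp7: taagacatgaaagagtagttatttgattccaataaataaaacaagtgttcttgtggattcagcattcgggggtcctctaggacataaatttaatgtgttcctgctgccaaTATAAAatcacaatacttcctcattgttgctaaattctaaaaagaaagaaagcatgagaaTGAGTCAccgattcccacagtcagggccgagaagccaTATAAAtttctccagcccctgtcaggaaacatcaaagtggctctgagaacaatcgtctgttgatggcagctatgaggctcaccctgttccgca

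**Figure D3:**
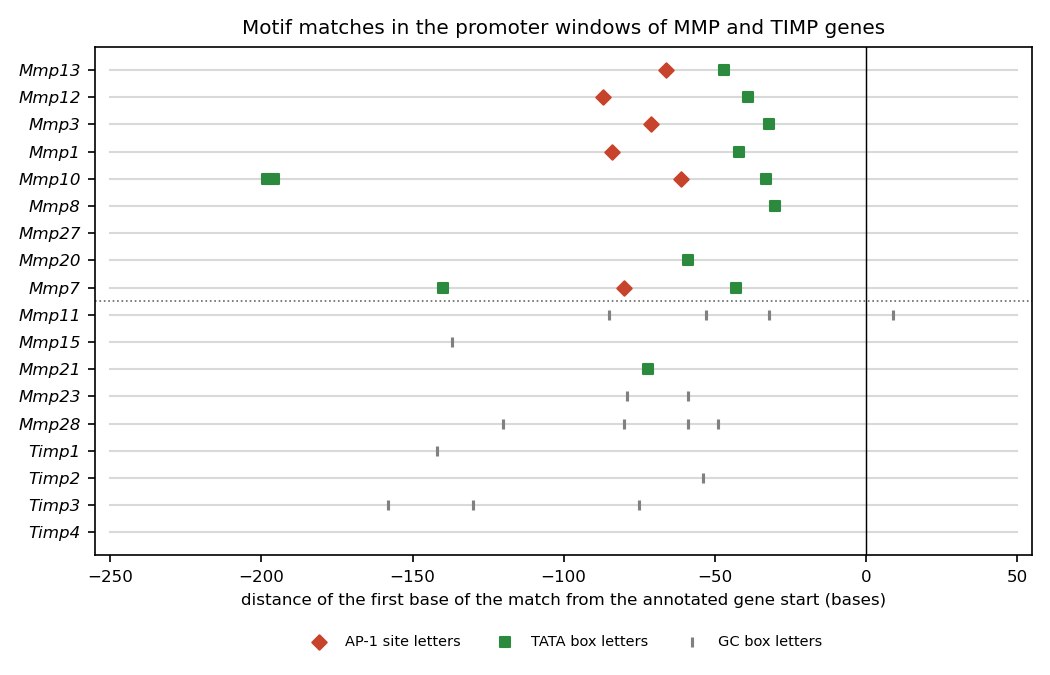
Motif matches in the promoter windows of the 14 MMP and 4 TIMP genes in the table. The horizontal axis is the distance in bases of the first base of a match from the annotated gene start, and genes above the dotted line are those side by side on chromosome 8. The AP-1 letters lie 61 to 87 bases before the start in 6 of the upper 9 genes and in none of the lower ones.

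Mmp12, the macrophage elastase that cuts elastin, had log2 signals of 9.70, 9.71 and 9.62 in normal lung and of 12.74, 12.34 and 12.38 in the tumors. All 3 tumor spots and the spot of normal array 3 carried an outlier mark, so the gene was outside the main test. With these spots kept, the groups did not overlap and the difference was 2.81 on the log2 scale (SE 0.12, adjusted p = 1.79e-05), or 7.02-fold. Set against the normal arrays of its own scan, tumor 1 was higher by 3.07. Of the macrophage list (6 of 7 markers on the array), 3 were tested and none was called, with Cd68 at 0.75, Mrc1 at 0.36 and Csf1r at -0.77, while Marco, Cd163 and Itgam were above background on no lung array. The summed signal of that list was 147600 to 157500 in normal lung and 155700 to 186000 in the tumors, and its part in the Mmp12 result was not tested.

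Mmp7, or matrilysin, a small protease of epithelial cells, gave 5.28, 5.12 and 5.42 in normal lung and 6.98, 6.86 and 6.86 in the tumors. The tumor arrays were all higher, by 1.62 (SE 0.09, adjusted p = 5.68e-05). After normexp, another background correction, the log2 fold change was 0.89 and below the 2-fold limit.

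Among the collagenases, Mmp8, the neutrophil collagenase, had 5.07, 4.85 and 4.39 in normal lung and 3.65, 3.07 and 1.83 in the tumors, of which 1 of 3 tumor arrays was above background. It was lower by -1.92 on the log2 scale (SE 0.50, adjusted p = 0.0187). The call did not hold with the scan as a block (-1.12, adjusted p = 0.159), with near-identical arrays counted once (adjusted p = 0.172), after normexp (-0.34), in the paired form of the methods' t-test (adjusted p = 0.0614), without normal array 1 (adjusted p = 0.0596) or without normal array 2 (adjusted p = 0.0564). Mmp13, another collagenase, gave 5.96, 6.55 and 5.83 against 5.27, 5.58 and 4.83, with a log2 fold change of -0.89 that stayed under the 2-fold limit (adjusted p = 0.0329). Mmp1 lay between 1.30 and 1.41 on all lung arrays, which is below background.

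**Figure D4:**
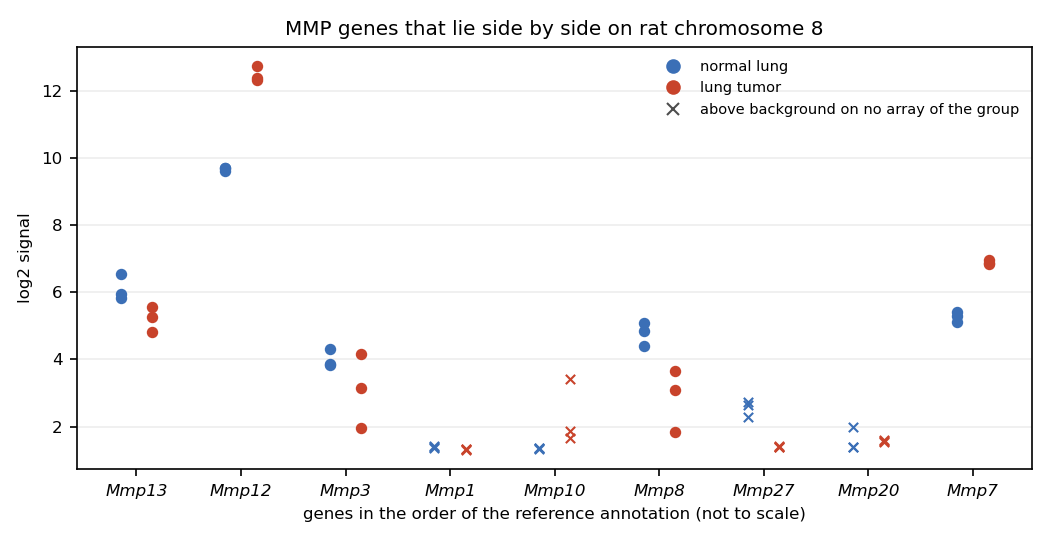
Log2 signal of the 9 MMP genes that lie side by side on rat chromosome 8, in the order of the annotation and not to scale. Blue marks are the 3 normal lung arrays, red marks the 3 lung tumor arrays, and crosses mark groups in which no array was above background. Only Mmp12 and Mmp7 lie higher on the tumor arrays among the genes tested.

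The gelatinases cut denatured collagen and the collagen of basement membranes. Mmp9 had log2 signals of 9.61, 9.54 and 9.61 in normal lung and of 6.74, 6.14 and 6.19 in the tumors. It was lower on every tumor array, by -3.23 on the log2 scale (SE 0.17, adjusted p = 4.49e-05), or 9.39-fold. Tumor 1 alone, against the normal arrays of its scan, was lower by -2.85, and normexp gave -2.57 for all tumors. Mmp2, the other gelatinase, gave 13.88, 14 and 13.97 against 13.77, 13.55 and 13.53, with marks on 5 of its 6 spots. With them kept the log2 fold change was -0.33 (adjusted p = 0.0173), under the 2-fold limit.

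Some markers of blood cells were also lower in the tumors, while others were not called. Of 5 neutrophil markers on the array 4 could be tested with the marked spots kept, and S100a8 (-2.12) and Csf3r (-2.40) were lower, while Camp (-0.56) and Cxcr2 (-0.50) were not called. Their summed signal was 14210 to 15030 in normal lung and 3563 to 4349 in the tumors. Of 4 platelet markers 3 were lower, but Pf4 was at 0.98 and their summed signal went the other way, from 4927 to 5266 in normal lung to 7746 to 9075 in the tumors. All 4 red cell markers were lower, with sums of 25830 to 26440 against 2697 to 2791. The part of these cells in the fall of Mmp9 and Mmp8 was not tested, and in bulk tissue fewer cells of a type and less RNA per cell cannot be told apart.

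The membrane-type MMPs act at the cell surface, and their measured members split in direction. Mmp14 (MT1-MMP), an activator of the Mmp2 precursor, gave 10.64, 10.58 and 10.59 in normal lung and 12.13, 11.75 and 11.86 in the tumors. It was higher on all tumor arrays, by 1.31 (SE 0.11, adjusted p = 0.000231). Mmp15 (MT2-MMP) gave 14.01, 13.92 and 14.02 against 15.04, 15.37 and a marked 15.36, a rise of 1.22 (adjusted p = 0.00123). Counted once, the near-identical arrays left both at about the same log2 fold change, 1.37 and 1.22, but not past the threshold (adjusted p = 0.0651 and 0.078).

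Mmp17 (MT4-MMP), which is held by a lipid anchor, went the other way, from 10.42, 10.55 and 10.41 in normal lung to 8.83, 8.61 and 8.68 in the tumors. The groups were far apart, with a log2 fold change of -1.75 (SE 0.08, adjusted p = 2.83e-05). Mmp16 (MT3-MMP) gave 11.98, 11.92 and 11.98 against 10.93, 10.72 and 10.85, with marks on tumors 2 and 3. With these kept it was lower by -1.12 (adjusted p = 7e-05), and by -1.10 with near-identical arrays counted once, where it was not past the threshold (adjusted p = 0.0616).

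Of the remaining MMPs, Mmp11 (stromelysin 3), known from the stroma of carcinomas, was slightly brighter on each tumor array, with 12.36, 12.20 and 12.32 against 11.66, 11.65 and 11.66. The log2 fold change of 0.64 did not reach the 2-fold limit (adjusted p = 0.000391). Mmp19 (-0.15, adjusted p = 0.453) and Mmp23 (0.92, adjusted p = 0.484) were not called, and for Mmp23 normal array 2 alone stood at 7.32, above all the tumor arrays. Mmp3, Mmp10, Mmp20, Mmp21, Mmp27 and Mmp28 were dim, though normal array 2 had Mmp21 at 5.07 and above background, against 1.23 to 1.34 on the other lung arrays.

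None of the 4 TIMPs was called higher in lung tumor. Timp3, the inhibitor that binds to the matrix and also blocks several ADAM and ADAMTS proteases, had log2 signals of 16.32, 16.40 and 16.44 in normal lung and of 14.21, 14.27 and 14.33 in the tumors. Each group spanned little and they lay far apart, with a log2 fold change of -2.12 (SE 0.06, adjusted p = 7.46e-06), or 4.34-fold. The value was -2.18 within the first scan and -2.13 with near-identical arrays counted once.

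Timp4 gave 7.27, 7.17 and 7.29 against 6.05, 6.14 and 6.21, and was lower by -1.11 (SE 0.07, adjusted p = 7.68e-05). This is close to the 2-fold limit, and a shift to the 75th percentile (-0.89), quantile normalization over all 8 arrays (-0.98), normexp (-0.67) and the authors' values (-0.90) each left it under that limit. With near-identical arrays counted once it was at -1.13 (adjusted p = 0.0627). Timp1, a secreted inhibitor with a broad range of MMP targets, gave 15.14, 15.12 and 15.14 against 14.32, 14.25 and 14.27. Its groups did not overlap, and its log2 fold change of -0.86 (adjusted p = 5.89e-05) was under the 2-fold limit, but with a shift to the 75th percentile it reached -1.02. Timp2, which also takes part in activating the Mmp2 precursor, was above background on no normal array and on all 3 tumor arrays. It lay between 3.02 and 4.86 on all lung arrays. It was not called (adjusted p = 0.212). The bound for the tumor mean was 1.13-fold, but only tumor 1, at 4.86, lay above all normal arrays. Tumors 2 and 3 were at 3.73 and 3.50, and normal array 1 at 3.75. With the scan as a block, which leaves tumor 1, Timp2 was higher by a measured 1.47 on the log2 scale, with the normal arrays below background.

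Among 15 ADAMs, 10 were tested, of which 3 were higher and 2 lower, beside 11.5% and 16.8% of all mRNA probes. Adam9 (meltrin gamma), a catalytically active and broadly expressed sheddase, had 4.60, 4.33 and 4.53 in normal lung and 7.94, 7.87 and 7.53 in the tumors. It was higher on each tumor array by more than the whole range of either group, with a log2 fold change of 3.29 (SE 0.14, adjusted p = 2.08e-05). Normexp gave 1.69 for it, still past the threshold. Adam19 (meltrin beta), also an active protease, gave 13.27, 13.47 and 13.39 against 14.97, 15.10 and 15.18, with marks on all tumor spots and on normal array 3, and with them kept it was higher by 1.71 (adjusted p = 3.09e-05).

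Adam7, known from the epididymis, gave 7.86, 8.14 and 7.90 in normal lung but differed among the tumors, with 9.48 in tumor 1 and 11.13 and 11.16 in tumors 2 and 3. It was higher by 2.62 (SE 0.49, adjusted p = 0.00558), and by 1.51 within the first scan. It was not past the threshold with near-identical arrays counted once (2.35, adjusted p = 0.172) or in the paired form of the methods' t-test (adjusted p = 0.0698). Adam6 was above background in the tumors alone, with 5.37, 5.24 and 5.41 against 3.16, 2.53 and 2.97, and it passed the filter through them. It was at least 2.8-fold higher as a bound, while normexp put its log2 fold change at 0.53, under the 2-fold limit.

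The ADAMs that were lower are best known from the testis and sperm. Adam3a (cyritestin) gave 7.32, 7.35 and 7.34 in normal lung and 5.92, 5.68 and 5.68 in the tumors, a log2 fold change of -1.58 (SE 0.08, adjusted p = 4.2e-05). Adam30 gave 6.04, 5.80 and 5.49 against 4.31, 4.75 and 4.21, a log2 fold change of -1.36 (adjusted p = 0.00238). Both lay under the 2-fold limit after normexp, at -0.83 and -0.37, and Adam30 was not past the threshold with near-identical arrays counted once (-1.39, adjusted p = 0.0502). Adam4 (-0.71) and Adam4l1 (-0.98), which are neighbours on chromosome 6, were below the fold limit, and so were Adam1a (-0.26) and Adam15 (-0.55), while Adam11 was at 0.76 (adjusted p = 0.0817). Adam2, Adam5, Adam23 and Adam34 were dim in lung. Whether near-identical relatives share a probe was not examined.

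The ADAMTS proteases of the proteoglycanase group cut aggrecan and versican. Adamts5, or aggrecanase 2, had 5.85, 5.35 and 5.22 in normal lung and 7.66, 8.20 and 8.25 in the tumors. All tumor arrays were higher, by 2.56 (SE 0.24, adjusted p = 0.000366), and by 1.54 after normexp. The paired form of the methods' t-test gave it an adjusted p of 0.0503. Adamts1, the gene next to it on chromosome 11, showed 13.63, 13.68 and 13.60 against 13.67, 13.49 and 13.56, with marks on 5 of 6 spots, and with them kept its log2 fold change was -0.07 (adjusted p = 0.413).

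Adamts15 gave 11.76, 11.95 and 11.96 in normal lung and 10.18, 10.23 and 10.35 in the tumors, a log2 fold change of -1.64 (SE 0.09, adjusted p = 4.08e-05). Adamts9 gave 13.69, 13.69 and 13.53 against 11.57, 11.38 and 11.22, with all tumor spots marked. With these kept it was lower by -2.25 (SE 0.11, adjusted p = 2.46e-05). Most endothelial and type 1 alveolar markers tested were also lower in the tumors. All 4 endothelial markers tested with marked spots kept were lower (Tek by -2.74, Ramp2 by -2.64, Cldn5 by -1.94, Pecam1 by -1.88), with a summed signal of 205200 to 214400 in normal lung and 36870 to 37160 in the tumors, while Cdh5 was above background on no lung array. Of 7 type 1 alveolar probes 5 were lower with marked spots kept, both Cav1 probes among them, beside 15.3% of all mRNA probes. Aqp5 (-0.84) and Rtkn2 (0.9997) were not called. The type 1 sums were 1224000 to 1239000 in normal lung against 322300 to 346500 in the tumors. Of 6 type 2 alveolar markers 1 was higher (Sftpc at 1.14) and none lower, and of 4 fibroblast markers tested 1 was lower (Pdgfra at -2.38). No smooth muscle or T cell marker was called. The part of these cell types in the results for Timp3, Mmp17, Adamts9 and Adamts15 was not tested.

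Adamts19 is a little studied secreted protease. It was above background on no normal array, with 2.14, 1.35 and 2.71, and gave 8.99, 8.51 and 8.95 in the tumors. It passed the filter through the tumor arrays alone, so it is given as a bound. The tumors were at least 31.2-fold higher when each normal array was set at the lowest signal above its background. That bound, 4.96 on the log2 scale, depends on the background correction, and after normexp the log2 fold change of Adamts19 was 2.91. Adamts7, which cuts cartilage oligomeric matrix protein, split the tumors, with 3.71 in tumor 1 and 7.53 and 7.68 in tumors 2 and 3, against 3.98, 4.32 and 4.33 in normal lung. It was not called (2.10, SE 1.13, adjusted p = 0.153), and its sign turned within the first scan (-0.50). The signals compared there were near background. The lowest signal above background was 3.71 on tumor 1 and 3.88, 4.01 and 3.65 on the normal arrays. Adamts6 was higher by 1.66 with the marked spots of tumors 2 and 3 kept (adjusted p = 0.00132), but not past the threshold in the paired form of the methods' t-test (adjusted p = 0.0523). Adamtsl4, a matrix protein without a protease domain, was not called (-0.48), and Adamts12, Adamtsl3 and Adamtsl5 were dim.

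Of 20 further genes that activate or inhibit these proteases, 14 were on the array, and of the 10 probes tested 4 were higher and 2 lower, beside 11.5% and 16.8% of all mRNA probes. Among the higher ones were Hpn, the membrane serine protease hepsin (2.57, adjusted p = 7.75e-06), Tmprss4, another membrane serine protease (2.18), and A2m, the plasma inhibitor alpha-2-macroglobulin (1.97). Lower were Tll1, a procollagen C-proteinase (-2.17), and Plg, or plasminogen (-1.02). Furin, which activates membrane-type MMPs and ADAMs, had marked spots and lay at -0.28 with them kept, while Pcsk6, a convertase related to it, was higher by 2.18 with them kept. Plau and Plaur, the urokinase and its receptor, were at -0.05 and 0.05.

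All 15 genes whose proteins are shed or cleaved by ADAMs were on the array. In the main test 2 of 8 were lower and none higher, beside 16.8% and 11.5% of all mRNA probes. Among the 2 was the interleukin 6 receptor Il6r (-1.22). With marked spots kept 14 were tested. Beside the 2, Dll1 (-3.21) and Notch1 (-2.18), a Notch ligand and receptor, were then lower. Of the EGF receptor ligands, Areg (2.53) and Tgfa (1.84) were higher, though Tgfa was at 0.89 with the scan as a block. Hbegf (-1.11) and Ereg (-0.48) were not called, and Btc was dim. With marked spots kept, 15.3% of all mRNA probes were lower and 11.7% higher. Of the matrix substrates 5 probes were in the main test and 1 was lower, beside 16.8% of all mRNA probes. It was Col4a1 of the basement membrane (-1.22, adjusted p = 0.000425). Eln (-0.79), Fn1 (-0.16) and Col3a1 (0.08) were not called.

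In blood the question was whether the clot of the NNK-treated rat differed from that of the control rat. There was 1 array per group, so the values have no replicate error and no test. Of the 50 genes, 17 were above background on both blood arrays, 4 in control blood alone, 6 in NNK blood alone and 23 on neither. Between the lung and blood, 13 genes were above background on all 8 arrays, 15 on all 6 lung arrays and no blood array, and 8 on a blood array and no lung array. Of 16 genes above background on both arrays with unmarked spots, 4 were past 2-fold upward in NNK blood and 3 downward. For this filter the share over all mRNA probes was not computed, so these counts cannot be judged. With signal on 1 array taken as enough, 25 genes were compared, and 9 measured values were past 2-fold upward and 5 downward, beside 26.0% and 17.8% of all mRNA probes. Of these, 5 of the 9 and 2 of the 5 passed the filter through the brighter array alone, so the counts support nothing about these genes.

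Adam7 stood at a log2 signal of 9.14 in control and 12.53 in NNK blood, a difference of 3.40 that ranged down to 2.47 in the authors' values. Adam15 (metargidin) went from 8.25 to 10.67, a difference of 2.41, and Mmp9 from 8.73 to 10.11, a difference of 1.38. In lung tumor against normal lung Mmp9 had gone the other way. Adamtsl4 differed by 1.19, from 5.34 to 6.53, and by 0.48 after normexp. Mmp8 gave 5.22 and 5.99, a difference of 0.76 that lay under 2-fold, though it reached 1.34 with quantile normalization over all 8 arrays and 1.37 in the authors' values. The summed signal of the neutrophil markers was 15120 in control and 71300 in NNK blood, most of it from S100a8, which was higher by 2.33. The macrophage sum was 3671 and 6851. The T cell sum was 18330 and 16160, though 3 of 5 T cell markers were past 2-fold upward. The part of these cells in the blood values was not tested.

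Timp3 stood at 8.12 in control and 5.18 in NNK blood, a difference of -2.94, which ran from -4.96 with quantile normalization over all 8 arrays to -1.78 after normexp. Timp2 differed by -1.46, from 5.86 to 4.40, but by -0.56 after normexp. Mmp14 differed by -1.31, from 8.56 to 7.25. The platelet markers, 4 of 5 on the array, summed to 150400 in control and 85280 in NNK blood, and their part in these differences was not tested. Timp1 (0.94), Timp4 (0.35), Adam1a (-0.89), Adam11 (-0.52) and Mmp11 (-0.04) were under 2-fold, though a shift to the 75th percentile moved Adam1a to -1.13 and Adam11 to -1.42.

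Some genes that were dim in lung were above background in a single blood array. In NNK blood alone these were Adam23, at least 4.5-fold higher, Mmp21, at least 4.12-fold, Mmp1, at least 2.33-fold, Adam2, at least 2.12-fold, and Adamtsl3, at least 1.46-fold, while Adam34 at 4.36 was barely above background. Control blood alone had Mmp28, at least 2.11-fold higher than NNK blood, Mmp20, at least 1.46-fold, and Mmp10 at 8.71, whose comparison carried an outlier mark. Mmp27 was above background on both, at 6.78 and 7.82, also with a mark. Mmp12, Mmp7 and Mmp13 were above background on neither blood array.

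**Figure D5:**
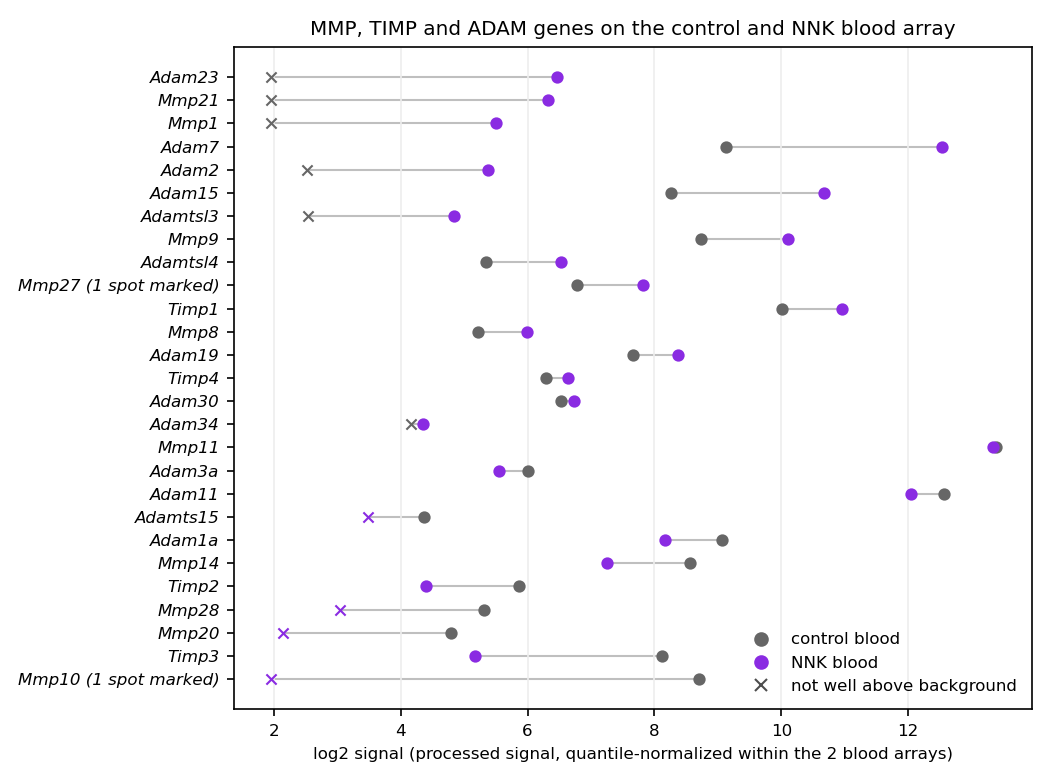
Log2 signal of the 27 genes above background on at least 1 blood array, with 1 array per group. Grey marks are control blood, purple marks NNK blood, and crosses are signals not well above background. Adam7 and Adam15 lie to the right in NNK blood and Timp3 to the left.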

How the data were processed

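RNA of 3 lung tumors, 3 matched normal lungs and 2 blood clots was measured at week 95 on 1-colour arrays. Groups came from the sample labels. The description of the NNK blood sample named a lung tumor, but the other labels name a blood clot, which decided its group. The authors deposited intensities per spot from Agilent Feature Extraction 10.5.1.1, background-subtracted and not normalized between arrays, and log2 values that they quantile-normalized over all 8 arrays in GeneSpring (median per array 5.616 to 5.619).

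Here control spots were dropped, the log2 intensities were quantile-normalized separately in lung and in blood, outlier-marked spots were left out, and lung groups were compared by limma (lmFit, then eBayes) 3.58.1 in R 4.3.3 over 12471 probes. A spot counted as above background by the software's flag, on at least 3 lung arrays or 1 blood array, and 2 unmarked arrays per group were required. Blood was compared by fold alone. A gene above background on no array of 1 group was given as a bound, against the mean over that group's arrays of the higher of its own signal and the lowest signal above background. Precision is limited by the number of arrays. Of 15323 mRNA probes 14274 matched a RefSeq gene of GRCr8, and promoter sequences are from RefSeq. Only the limma fit and the calling rule were tested on simulated data, with independent noise on each array. Normalization, filters, bounds, the blood comparison and the motif search were not simulated.

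Genes were named by rule: called genes of both lung directions, up to 12 each, the TIMPs and a few set MMPs, ADAMs and ADAMTS, and in blood the 5 largest rises and falls above background on both arrays. Other genes that appear with a value were added after their values were seen. Some list members are counted but not reported here by name. Members and lists were chosen with earlier results of these data known. The planned split of the ADAMs by their zinc-binding motif was not made, since no protein sequences were used here. Alternatives were other normalizations (75th percentile, all 8 arrays, the authors' values), normexp with an offset of 50, other filters, marked spots kept, the methods' t-test, replicate and scan blocks, near-identical arrays counted once, and each lung array left out.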

Additional observations from a re-analysis of the deposited data

How the results depend on the processing

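No called gene reversed its direction in lung under the alternatives run. Adamts1, Adamts7 and Mmp19, which were not called, changed sign with the scan as a block. For Adamts7 the signals behind that change lay near background. The counts of 8 higher and 8 lower genes in lung went to 4 lower after normexp, to 5 higher with the paired form of the methods' t-test after adjustment, and to 5 higher and 5 lower with near-identical arrays counted once. Leaving out each lung array gave 7 to 9 higher and 7 to 9 lower. In NNK blood the 9 higher and 5 lower genes became 8 lower with a shift to the 75th percentile, 5 higher and 2 lower after normexp, 8 lower with no filter on dim probes, and 4 higher and 3 lower with signal above background required on both arrays. The cause was not tested, except that the filters change which genes are compared. For these alternatives the share over all mRNA probes was not computed, so the changed counts cannot be judged.

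The labels call the lung tissues matched and number them, without saying that equal numbers mark 1 rat. Deviations of same-numbered arrays from their group means correlated at 0.143, -0.0406 and 0.16 over 11359 probes, and the replicate block gave 8 higher and 8 lower genes, so it changed no count. Over the genes named, 460 values for lung stayed on their side of the threshold, 23 lost the call and 2 gained it, and in blood 71 stayed and 6 moved.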
